A study of Mus musculus with 12 samples.

Results

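Transcripts of 9 genes grouped as brakes on the ERK branch of the MAP kinase pathway were followed across the leukocytes of melanoma-bearing mice. The genes were the dual-specificity phosphatases Dusp1, Dusp2, Dusp4, Dusp5, Dusp6 and Dusp10, the Sprouty genes Spry1 and Spry2, and the Sprouty-related gene Spred1. They were chosen by name, and all 9 were found among the 32285 genes of the deposited matrices. Dusp10 is counted among them, though it prefers p38 and JNK. The 3 CAL-101 mice had received Pmel Thy1.1 CD8+ T cells that were cultured with CAL-101, also called idelalisib, which blocks PI3K delta. The 3 control mice had received such T cells cultured with vehicle. All 6 hosts were Rag1-deficient (B6.129S7-Rag1tm1Mom/J) and so lacked T and B cells but kept NK and myeloid cells, and all bore intradermal B16-F10 tumours, a transplantable mouse melanoma. The drug was given in culture, before transfer. Live CD45.2+ cells were sorted from the dissociated tumours. Drug dose, length of culture and age of the mice were not given in the sources used here.

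Receptor signals switch on Ras, which drives RAF, MEK and ERK, and active ERK induces genes whose products shut the pathway down again. DUSP proteins take the phosphates off MAP kinases in the nucleus or cytoplasm. Sprouty proteins damp the signal between receptor and Ras, and SPRED1 brings the Ras inactivator neurofibromin to the membrane. In T cells several of these genes are induced by antigen receptor signals.

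The libraries held 45477 cells, 6152 to 7217 per CAL-101 and 7716 to 9147 per control mouse, with 75716841 to 93929471 RNA UMIs (unique molecule counts) in CAL-101 and 90933212 to 97933109 in control libraries. Mitochondrial UMIs exceeded 20% in 10.9 to 15.4% of CAL-101 and 6.78 to 10.9% of control cells, and any pair of libraries shared 8 to 31 cell barcodes. All cells with a T cell label, 32861 in number and 167 of them labelled CD4+, were taken as T cells. Of these, 86.78% lay in deposited clusters 1 to 5. Most others lay in cluster 6 (1709 cells) and in NK-majority clusters 0, 7, 8 and 9 (1264, 159, 597 and 481 cells). Cluster 0 held 329 T cells of CAL-101 and 935 of control mice. A further 11687 cells were labelled NK. Summed T cell markers stood at 3073 to 3387 CPM in CAL-101 and 2745 to 3320.3 CPM in control T cells, and at 262 to 309.6 CPM in CAL-101 and 184 to 299.7 CPM in control NK cells. Summed NK markers stood at 4519.5 to 4572 CPM in CAL-101 and 4436 to 4849 CPM in control NK cells. Levels are given as CPM, the UMIs of a gene scaled to a common total of RNA UMIs for that class or cluster in 1 mouse. They are 3' counts not divided by length, so levels are compared within a gene and not between genes. A lower level in such a sum cannot be told apart from fewer expressing cells.

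On GRCm38.p6, the assembly that mm10 is built on, the phosphatase genes lie as follows: Dusp1 at chr17:26505591-26508472, Dusp2 at chr2:127336159-127338377, Dusp4 at chr8:34807610-34819894, Dusp5 at chr19:53529145-53541809, Dusp6 at chr10:99263231-99267489 and Dusp10 at chr1:184034381-184075636. The other 3 are Spry1 at chr3:37639947-37644599, Spry2 at chr14:105891947-105896819 and Spred1 at chr2:117121071-117182279. All are protein coding. RefSeq promoters (GRCm38.p6) were matched for 8 of the 9, all but Dusp4. The 250 bases before the start of Dusp1 and Dusp5 are shown because these were the members that held any motif searched, and those of Spry2 and Spred1 because these genes differed between the groups in opposite directions in T cells of clusters 1 to 5. Each is written on the gene's strand, with motif matches in capitals.
Dusp1 (chr17:26508473-26508722, minus strand): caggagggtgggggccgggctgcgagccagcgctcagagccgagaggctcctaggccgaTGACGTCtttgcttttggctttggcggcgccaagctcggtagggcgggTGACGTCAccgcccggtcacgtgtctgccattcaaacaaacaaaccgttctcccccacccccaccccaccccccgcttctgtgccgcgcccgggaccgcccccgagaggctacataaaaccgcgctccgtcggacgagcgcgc
Dusp5 (chr19:53528895-53529144, plus strand): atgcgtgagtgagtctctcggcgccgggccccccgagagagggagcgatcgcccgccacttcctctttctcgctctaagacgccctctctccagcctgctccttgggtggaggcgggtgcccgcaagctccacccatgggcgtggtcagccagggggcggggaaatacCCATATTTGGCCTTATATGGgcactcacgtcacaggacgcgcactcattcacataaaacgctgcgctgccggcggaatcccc
Spry2 (chr14:105896820-105897069, minus strand): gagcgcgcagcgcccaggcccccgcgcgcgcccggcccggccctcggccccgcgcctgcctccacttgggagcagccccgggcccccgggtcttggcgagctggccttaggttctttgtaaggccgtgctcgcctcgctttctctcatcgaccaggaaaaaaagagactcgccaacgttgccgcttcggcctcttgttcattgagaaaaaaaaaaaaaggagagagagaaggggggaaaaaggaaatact
Spred1 (chr2:117120821-117121070, plus strand): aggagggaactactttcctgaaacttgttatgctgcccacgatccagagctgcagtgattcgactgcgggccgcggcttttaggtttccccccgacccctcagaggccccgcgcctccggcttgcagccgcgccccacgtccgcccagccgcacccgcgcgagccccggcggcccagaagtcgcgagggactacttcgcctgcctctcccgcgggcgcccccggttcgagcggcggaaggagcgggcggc

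The motifs were AP-1 (TGANTCA), CRE (TGACGTC), the CArG box bound by SRF, ETS (CCGGAAG) and FOXO (GTAAACA), searched on both strands over the 250 bases before and 50 after each start. The Dusp1 promoter held CRE letters starting 191 and 143 bases before the start, the nearer of them also matching on the other strand in an overlapping run. The Dusp5 promoter held CArG boxes starting 82 and 72 bases before the start, side by side. Of 32544 promoters of this length, 3.22% held the CRE letters, 1.64% a CArG box, 7.79% AP-1, 8.91% ETS and 3.66% FOXO letters. In the other 6 promoters none of these letters was found in this window.

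The phosphatases differed in where they were highest. Dusp1, a nuclear phosphatase that acts on p38 and JNK as well as ERK, was highest in cluster 10, which held 414 cells labelled neutrophils and 232 labelled monocytes. Its mean was 1306 CPM ± 321 there and 374 CPM ± 96.99 in cluster 11, whose cells were mostly labelled monocytes or dendritic cells (SD, n = 6 mice, both groups together). NK-rich clusters 9 and 0 followed with 179.7 CPM ± 29.9 and 179.6 CPM ± 16.04, a step within their spread. The T cell clusters 1 to 5 ranged from 102 to 150.2 CPM, each within the spread of its neighbour. Dusp1 was thus highest in myeloid cells.

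Dusp2, an immediate-early nuclear phosphatase of activated leukocytes, averaged 343 CPM ± 23.1 in NK cells and 256 CPM ± 24.8 in T cells (SD, n = 6), a step beyond their spread. Dusp5, a nuclear phosphatase with a preference for ERK, had 318 CPM ± 17.01 in NK-rich cluster 0, above every other cluster beyond the spread. It was lowest, at 92.6 CPM ± 26.7, in cluster 6, whose median cell per mouse held 814 to 961 UMIs. By label, Dusp5 averaged 256 CPM ± 84.3 in neutrophils (n = 5 mice) and 248 CPM ± 17.6 in NK cells, a step within their spread. Dusp6, the cytoplasmic ERK phosphatase, had means of 26.5 to 40.5 CPM in 11 of 12 clusters and 17.3 CPM ± 5.84 in cluster 6. By cell label it was highest in monocytes, at 79.9 CPM ± 27.7, and lowest in NK cells, at 27.5 CPM ± 1.92, among the 5 labels compared. Dusp10, which prefers p38 and JNK, was highest in cluster 1, at 91.02 CPM ± 9.71, and stood at 37.97 CPM ± 5.29 in cluster 2. NK-rich cluster 9 followed cluster 1 with 75.03 CPM ± 16.4, a step within their spread. The median cell per mouse held 2471 to 3178 UMIs in cluster 1 and 1809.5 to 2386 in cluster 9. Dusp10 levels in all T and all NK cells, 49.8 CPM ± 5.54 and 46.7 CPM ± 4.26, did not differ beyond their spread.

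Dusp4, Spry1 and Spry2 divided T cell from NK clusters. Dusp4, a nuclear phosphatase, averaged 65.8 to 77.8 CPM in clusters 1 to 5 and 8.62 to 9.86 CPM in NK-rich clusters 0, 7 and 9. Spry1 followed the same order, with 8.33 to 13.2 CPM in clusters 1 to 5 and 0.615 to 1.20 CPM in clusters 0, 7 and 9. Spry2 had the opposite order. It averaged 110.2 CPM ± 23.4 in cluster 0, 88.3 CPM ± 24.03 in cluster 9 and 58.03 CPM ± 9.64 in cluster 7, against 10.5 to 19.3 CPM in clusters 1 to 5. Cluster 8, in which 42.1% of the cells had a T cell label, lay between the 2 sets for Dusp4 and Spry1, at 27.7 CPM and 2.82 CPM, and within the range of the NK-rich clusters for Spry2, at 61.1 CPM. Across 14 clusters the mean log2 levels of Dusp4 and Spry1 ran together (Pearson r = 0.880) and those of Dusp4 and Spry2 ran against each other (r = -0.692). These 14 points share their libraries and differ in depth, and clusters 12 and 13 rest on 1 mouse each with at least 20 cells.

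**Figure D1:**
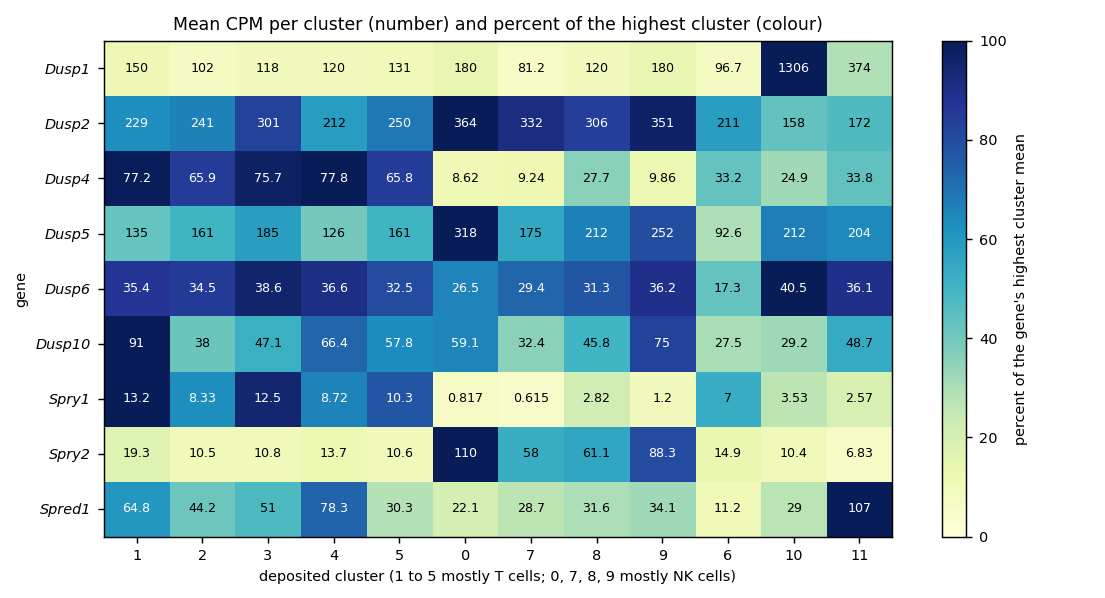
Mean level of each gene (rows) in the 12 deposited clusters with at least 20 cells in every mouse (columns), over all 6 mice. Numbers are mean CPM and colour is the percent of that gene's highest cluster mean. Dusp4 and Spry1 are dark in clusters 1 to 5 and pale in 0, 7 and 9, Spry2 the reverse, and Dusp1 peaks in cluster 10.

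The low Spry1 and Dusp4 of NK cells were set beside the T cell RNA counted in them. The ratio of Spry1 to Cd8a UMIs was 0.0268 to 0.0340 in CAL-101 and 0.0312 to 0.0365 in control NK cells, against 0.0199 to 0.0262 in CAL-101 and 0.0259 to 0.0356 in control T cells. The ranges overlapped in control mice, and in CAL-101 mice that of NK cells lay just above that of T cells. The NK values rest on 85 Spry1 UMIs, and the part of T cell RNA in them was not tested. For Dusp4 the ratio was 0.253 to 0.313 in CAL-101 and 0.459 to 0.538 in control NK cells, above the 0.123 to 0.145 of CAL-101 and 0.216 to 0.245 of control T cells.

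Spred1 was highest in cluster 11, at 107 CPM ± 26.2, and next in T cell clusters 4 and 1, at 78.3 CPM ± 18.1 and 64.8 CPM ± 17.9, which did not differ beyond their spread. Cluster 4 had a median mitochondrial share of 14.4 to 18.3% and cluster 1 a median of 2471 to 3178 UMIs per cell in the 6 mice. The lowest T cell cluster was cluster 5, at 30.3 CPM ± 9.71, and NK-rich cluster 0 stood at 22.1 CPM ± 2.88. The SD of the T cell clusters contains the group difference given further on.

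Genes with the most similar pattern over the 14 clusters were sought among 6031 genes with a mean of at least 20 CPM. For Dusp4 these were Themis, Irf4 and Lag3 (r = 0.962, 0.952 and 0.943). For Spry2 they were Pear1, Padi2 and D5Ertd615e (r = 0.945, 0.943 and 0.916), and for Spry1 Twsg1, Igfbp7 and Plcg1 (r = 0.918, 0.917 and 0.915). For Dusp1 they were Slfn8, Trim30d and Tgif1 (r = 0.987, 0.987 and 0.982), and for Dusp2 P2ry10, Gimap4 and Gata3 (r = 0.980, 0.975 and 0.969). The gene nearest to Dusp5 was Pik3cg, to Dusp6 Washc5, to Dusp10 Hivep2 and to Spred1 Zdhhc5 (r = 0.961, 0.980, 0.995 and 0.945). Cluster 13, which rests on 1 mouse, had 0 CPM of Dusp1 and Dusp10, 5.38 CPM of Dusp6 and 16.1 CPM of Dusp2. Each of these lay below the mean of every other cluster. Such a low point can raise r, and r was not recomputed without it.

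In cells with a T cell label, 4 of the 9 brakes differed between the groups, in both directions: Spred1 and Dusp10 rose, and Dusp4 and Dusp6 fell. Over all 16734 genes tested, 19.1% passed the same threshold, 9.46% higher and 9.63% lower, with a median log2 fold change of 0.00. In T cells of clusters 1 to 5 alone these 4 also passed (edgeR adjusted p of 0.00598 to 0.0379), where 17.3% of all genes did. Spred1 had 54.9, 50.7 and 54.1 CPM in CAL-101 T cells, against 35.8, 40.7 and 36.7 CPM in control T cells. All 3 CAL-101 mice lay above all 3 control mice, with a log2 fold change of 0.46 (SE 0.069, edgeR quasi-likelihood test, adjusted p = 0.00401). Spred1 was also high in myeloid cluster 11. Of 7 tested monocyte and macrophage markers in T cells, Lyz2, C1qa and C1qb rose, by 2.42, 3.39 and 2.56 on the log2 scale (edgeR adjusted p = 0.0125, 0.0226 and 0.0348), and Ccr2 fell by 0.96 (adjusted p = 0.00287). Lyz2, the most abundant of the 3 that rose, had 1.01, 0.638 and 1.98 CPM in CAL-101 T cells, against 0.139, 0.312 and 0.228 CPM in control T cells. The 8 listed markers, none of them at 0 in all mice, summed to 46.7 to 54.4 CPM in CAL-101 and 69.9 to 98.4 CPM in control T cells, most of it Ccr2. Their part in the Spred1 value was not tested. Dusp4 had 57.5, 56.2 and 62.9 CPM in CAL-101 T cells, against 71.3, 76.97 and 78.3 CPM in control T cells. The groups again did not overlap, with a log2 fold change of -0.40 (SE 0.068, edgeR adjusted p = 0.00672).

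Dusp6 had 33.5, 30.4 and 31.3 CPM in CAL-101 T cells, against 35.6, 40.99 and 37.4 CPM in control T cells, a log2 fold change of -0.30 (SE 0.071, edgeR adjusted p = 0.0226). Dusp10 had 53.6, 58.1 and 51.5 CPM in CAL-101 T cells, against 46.2, 43.5 and 45.99 CPM in control T cells, a log2 fold change of 0.23 (SE 0.059, edgeR adjusted p = 0.0317). For both genes the groups did not overlap. The T cells of the groups were spread differently over the clusters. Cluster 5 held 3549 T cells of CAL-101 and 378 of control mice, and cluster 3 held 1283 of CAL-101 and 4673 of control mice. With clusters 1 to 5 weighted equally the log2 fold change was -0.22 for Dusp6 and 0.23 for Dusp10, and neither passed (limma adjusted p = 0.181 and 0.0677), while Dusp4 passed at -0.35 (adjusted p = 0.0344). The call for Dusp6 was lost without CAL-101 mouse 2, CAL-101 mouse 3 or control mouse 3 (adjusted p of 0.0601 to 0.0719). That for Dusp10 was lost when any 1 of the 6 mice was left out (adjusted p of 0.0563 to 0.098). The groups did not overlap for 5 of the 9 brakes, nor for 39.6% of all genes tested.

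Dusp1 was the remaining one of those 5. It had 147, 122 and 129 CPM in CAL-101 T cells, against 96.3, 116 and 104 CPM in control T cells, and its log2 fold change of 0.29 (SE 0.090) missed the threshold (edgeR adjusted p = 0.0554). It passed in T cells of clusters 1 to 5 alone (0.35, SE 0.093, adjusted p = 0.0375), and without CAL-101 mouse 2 or control mouse 2 (adjusted p = 0.0436 and 0.0162). Dusp1 belongs to the immediate-early genes that tissue dissociation can induce. Of 16 other immediate-early and heat shock genes that dissociation can induce, 8 rose and 2 fell in T cells, where 19.1% of all genes passed. Those that rose were Jun, Fos, Egr1, Nr4a1, Socs3, Hspa1a, Hspa1b and Hsp90aa1. The 16 genes summed to 3827 to 4075 CPM in CAL-101 and 3516 to 3691 CPM in control T cells, and their part in the Dusp1 value was not tested.

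Dusp2, Dusp5 and Spry1 did not pass. Dusp2 averaged 257 CPM ± 33.2 in CAL-101 and 255 CPM ± 20.7 in control T cells, a log2 fold change of -0.03 (SE 0.105). Dusp5 averaged 173 CPM ± 19.2 in CAL-101 and 164 CPM ± 16.9 in control T cells, a log2 fold change of 0.04 (SE 0.102). Spry1 averaged 9.75 CPM ± 1.37 in CAL-101 and 9.67 CPM ± 1.92 in control T cells, a log2 fold change of -0.03 (SE 0.151; SD, n = 3 each). In each of these genes the groups overlapped, and the sign of the fold change turned when single mice were left out.

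**Figure D2:**
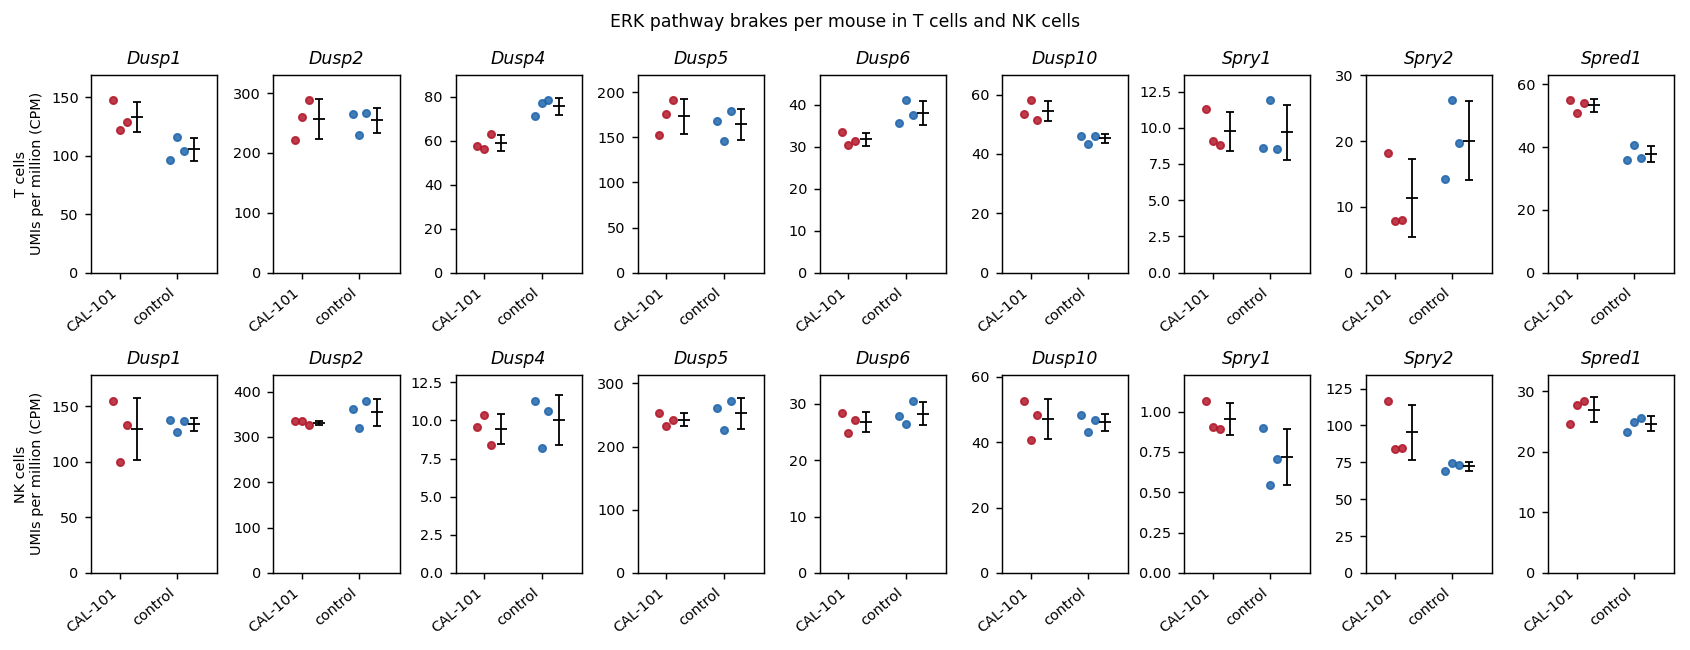
Level of each gene in T cells (upper row) and NK cells (lower row) of the 3 CAL-101 mice (left of each panel) and the 3 control mice (right), in CPM on axes that start at 0. Each point is a mouse and the bar is the mean ± SD. In T cells Spred1, Dusp10 and Dusp1 are higher and Dusp4 and Dusp6 lower without overlap, and in NK cells the 3 CAL-101 values of Spry2 lie above the 3 control values.

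Spry2 had the widest spread relative to its level. It had 18.2, 7.91 and 7.997 CPM in CAL-101 T cells, against 14.3, 26.2 and 19.7 CPM in control T cells. CAL-101 mouse 1 lay within the control range, and the log2 fold change of -0.87 (SE 0.337) did not pass (edgeR adjusted p = 0.107). Without that mouse it was -1.36 (adjusted p = 0.0104). Spry2 is high in NK cells, and the 4 mice with the most Spry2 in T cells were the 4 with the most NK cells. NK cells made up 33.3, 7.91 and 13.5% of cells in the CAL-101 mice and 25.6, 45.3 and 27.2% in the control mice. Summed NK markers in T cells stood at 140.4 to 309.7 CPM in CAL-101 and 281 to 463 CPM in control T cells. Of those 8 markers Fcer1g fell, the other 7 did not pass, and none was at 0 in all mice.

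In T cells of clusters 1 to 5 the NK marker sum was lower and the groups separated. Spry2 had 11.1, 6.66 and 6.24 CPM in CAL-101 T cells of these clusters, against 11.7, 18.7 and 15.4 CPM in control T cells of these clusters, a log2 fold change of -0.99 (SE 0.238, edgeR adjusted p = 0.0263), where 17.3% of all genes passed. CAL-101 mouse 1 lay just below control mouse 1. CAL-101 mice 2 and 3, which had the smallest shares of NK cells, again had the least Spry2. The NK markers summed to 72.1 to 97.1 CPM in CAL-101 and 93.03 to 126 CPM in control mice. Ncr1, an NK receptor gene, stood at 0.247 to 2.18 CPM in CAL-101 and 0.874 to 2.35 CPM in control mice. Tyrobp, another of the summed markers, stood at 13.3, 2.99 and 4.07 CPM in CAL-101 and 10.2, 19.2 and 13.5 CPM in control mice. These T cells held 5.10 to 26.95 Spry2 UMIs per Ncr1 UMI in CAL-101 and 7.93 to 17.6 in control mice, against 0.395 to 0.491 in CAL-101 and 0.400 to 0.474 in control NK cells. The Ncr1 counts behind these ratios were low, and the part of NK RNA in the Spry2 value was not tested.

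Within single clusters, Spred1 rose in each of T cell clusters 1 to 5. Its log2 fold change was 0.69 in cluster 1, 0.41 in cluster 2, 0.86 in cluster 3, 0.47 in cluster 4 and 0.81 in cluster 5 (edgeR adjusted p = 0.00206, 0.0201, 0.00168, 0.0431 and 0.00683). In cluster 3 it had 72.5, 63.9 and 64.4 CPM in CAL-101 cells, against 34.3, 37.7 and 32.9 CPM in control cells. In cluster 5 it had 41.7, 36.8 and 37.9 CPM in CAL-101 cells, against 18.6, 24.9 and 21.6 CPM in control cells. The groups did not overlap in any of the 5 clusters, as they did not for 30.4, 33.8, 30.3, 26.9 and 27.6% of all genes tested in clusters 1 to 5. With the 5 clusters weighted equally the log2 fold change was 0.65 (limma adjusted p = 0.00846). The calls in clusters 2 and 4 were lost without CAL-101 mouse 1 or 3 or control mouse 1 or 3, and that in cluster 4 also without CAL-101 mouse 2 (adjusted p of 0.0541 to 0.164). Those in clusters 1, 3 and 5 held with any 1 mouse left out.

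Spry2 had a negative fold change in all 5 T cell clusters and fell in 3. The log2 value was -1.14 in cluster 2, -1.10 in cluster 3 and -0.83 in cluster 4 (edgeR adjusted p = 0.0301, 0.0158 and 0.0363). In cluster 3 it had 7.67, 6.87 and 6.89 CPM in CAL-101 cells, against 11.1, 17.6 and 14.8 CPM in control cells. In clusters 1 and 5 the values were -0.69 and -0.67 (adjusted p = 0.147 and 0.2), and without CAL-101 mouse 1 they were -1.20 and -0.92 (adjusted p = 0.00333 and 0.0366). Each of the 3 calls was lost without CAL-101 mouse 2 or 3, those in clusters 2 and 4 also without control mouse 3, and that in cluster 4 without control mouse 1 (adjusted p of 0.0632 to 0.135).

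Dusp4 fell in clusters 2 and 3, by 0.40 and 0.45 on the log2 scale (edgeR adjusted p = 0.0116 and 0.043), and stood at -0.30, -0.35 and -0.30 in clusters 1, 4 and 5, where it did not pass. Dusp1 rose and Dusp6 fell in cluster 2, with log2 fold changes of 0.38 and -0.42 (adjusted p = 0.0254 and 0.0142). Dusp10 was not called in any of the 5 clusters, with values of 0.06 in cluster 3 and 0.22 to 0.32 in the others. In 4 of these clusters, all but cluster 3, its unadjusted p was under 0.05. Dusp2, Dusp5 and Spry1 passed in none of them, with 1 unadjusted p under 0.05, that of Dusp5 in cluster 5. In all, 12 of the 45 values passed, against 11.7, 12.6, 6.76, 8.28 and 5.23% of all genes tested in clusters 1 to 5. That number was 4 without control mouse 3, 5 without CAL-101 mouse 3 and 7 without CAL-101 mouse 2. The Dusp4 calls were lost without control mouse 3, and in cluster 3 also without CAL-101 mouse 2 or 3. In cluster 2 the Dusp6 call was lost without CAL-101 mouse 3 or control mouse 3, and the Dusp1 call without CAL-101 mouse 1 or 3 or control mouse 1 or 3. In these omissions the adjusted p was 0.0585 to 0.161.

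**Figure D3:**
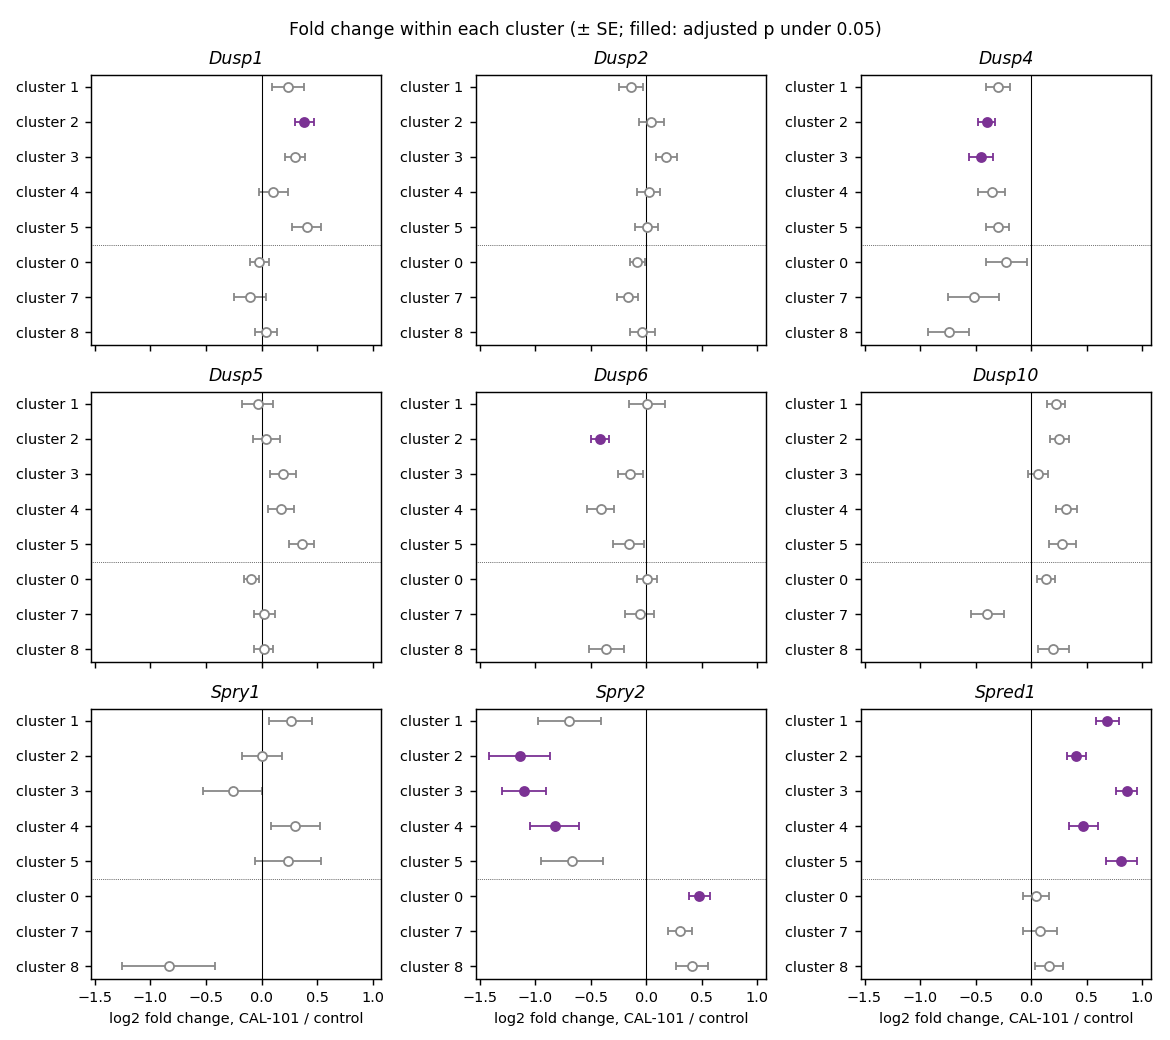
Log2 fold change of CAL-101 over control (horizontal axis, ± SE) within T cell clusters 1 to 5 (above the dotted line) and clusters 0, 7 and 8 (below it), 1 panel per gene. Filled points passed an adjusted p of 0.05 and a missing point was not tested. Spred1 passes in all 5 T cell clusters, and Spry2 lies left of 0 in those and right of 0 in the other 3.

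In host NK cells, 0 of the 9 brakes passed by edgeR, against 4.89% of 14028 genes. On simulated counts this test recovered 2% of changes of 0.3 on the log2 scale. Spry2 was the 1 member with an unadjusted p under 0.05, and DESeq2 called it and no other member. It had 117, 84.2 and 84.99 CPM in CAL-101 NK cells, against 68.9, 74.8 and 73.01 CPM in control NK cells. The 3 CAL-101 values lay above the 3 control values, as groups did not overlap for 26.8% of genes, and CAL-101 mouse 1 lay far above the rest. The log2 fold change was 0.38 (SE 0.111, edgeR adjusted p = 0.0826), and without that mouse it was 0.21 (adjusted p = 0.184). The other 8 members had log2 fold changes between -0.13 for Dusp2 and 0.47 for Spry1, the latter on 85 UMIs. Dusp4 stood at -0.11 (SE 0.155, edgeR adjusted p = 0.716), and at -0.38 in NK-labelled cells of clusters 0, 7, 9 and 13 (SE 0.187, adjusted p = 0.319). In cluster 8, of mixed labels, Dusp4 stood at -0.74 (SE 0.182, edgeR adjusted p = 0.105). That cluster held 216 T and 358 NK cells of CAL-101 mice, and 381 T and 462 NK cells of control mice. Dusp4 is higher in T cells, and the part of this mix in the value was not tested.

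In cluster 0, of which 85.5% of the cells were labelled NK, Spry2 rose. It had 149, 119 and 118 CPM in CAL-101 cells, against 83.9, 99.4 and 92.8 CPM in control cells, a log2 fold change of 0.48 (SE 0.092, edgeR adjusted p = 0.00993), where 5.53% of all genes passed. The call was lost without CAL-101 mouse 1 (0.33, adjusted p = 0.0792). In NK-labelled cells of clusters 0, 7, 9 and 13 the value was 0.45 (adjusted p = 0.0763), where 1.58% passed, and in clusters 7 and 8 it was 0.30 and 0.41 (adjusted p = 0.173 and 0.241). Of 5 tested melanoma markers, 3 rose in NK cells (Dct, Tyrp1 and Pmel), and the sum of the list was 7.24 to 86.3 CPM in CAL-101 and 4.51 to 5.21 CPM in control NK cells, highest in CAL-101 mouse 1. Their part in the Spry2 value was not tested. No tested member passed in clusters 6, 7, 8, 9, 10 and 11, where 1.40, 1.32, 0.459, 0.628, 5.80 and 0% of genes did, and 7 values had an unadjusted p under 0.05, 3 each in clusters 7 and 8 and 1 in cluster 10. In cluster 10, where Dusp1 was highest, it averaged 1385 CPM ± 457 in CAL-101 and 1227 CPM ± 175 in control cells (SD, n = 3 each), and the groups overlapped.

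**Figure D4:**
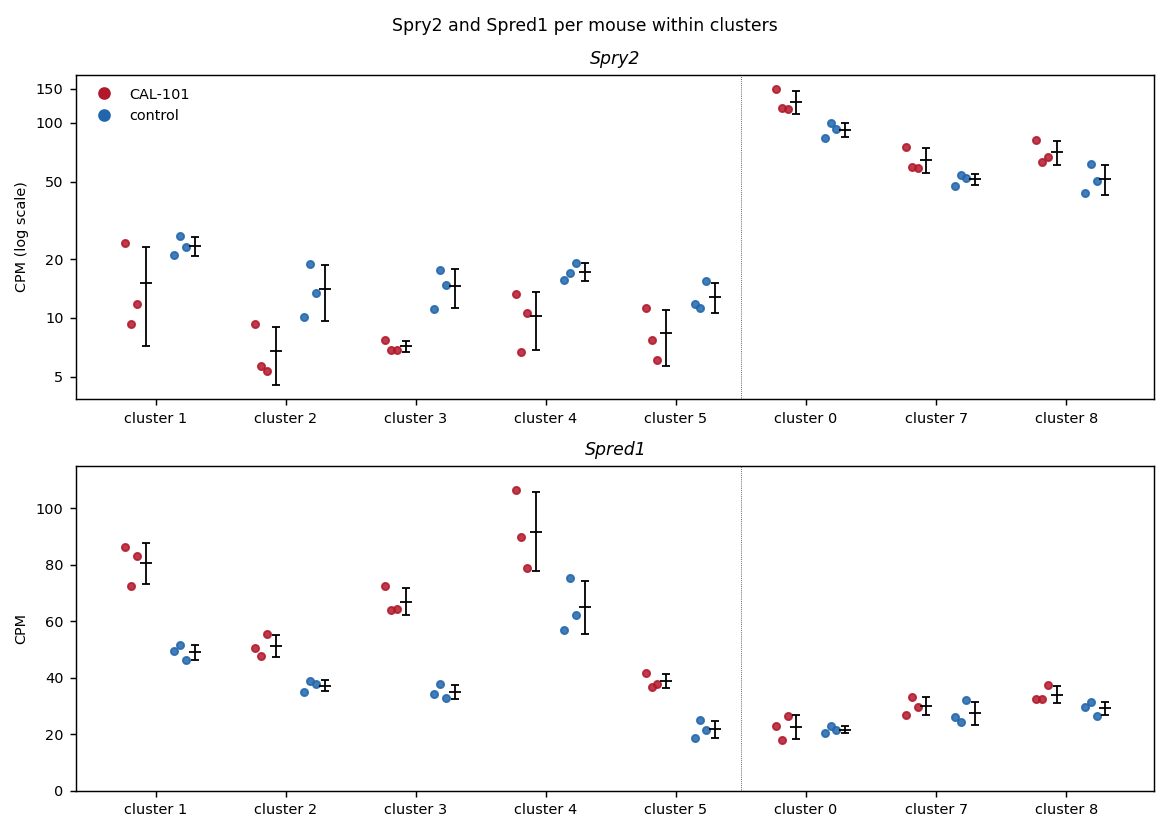
Level of Spry2 (upper panel, CPM on a log axis) and Spred1 (lower panel, CPM from 0) in each CAL-101 mouse (left of each pair) and control mouse (right of each pair), within T cell clusters 1 to 5 and, right of the dotted line, clusters 0, 7 and 8. Points are mice and bars mean ± SD. CAL-101 values of Spry2 are lower in clusters 2 to 5 and higher in clusters 0, 7 and 8, and those of Spred1 are higher in clusters 1 to 5.

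Whether the CAL-101 difference itself differed between T and NK cells was tested within mice, on log2 CPM in T cells minus that in NK cells. For Spry2 the difference was -0.93 in T cells and 0.34 in NK cells. The -1.27 between them (SE 0.272) did not pass over all genes (limma adjusted p = 0.113). The other values with an unadjusted p under 0.05 were those of Spred1, 0.38 (SE 0.110, adjusted p = 0.192), and Dusp1, 0.41 (SE 0.141, adjusted p = 0.242). By limma 0 of the 9 members passed, against 1.01% of 13901 genes. On simulated counts this test recovered 0% of changes of 0.3 on the log2 scale, 2% of 0.6 and 32% of 1. With T cells of clusters 1 to 5 set against NK cells of clusters 0, 7, 9 and 13, Spry2 passed at -1.40 (SE 0.165, limma adjusted p = 0.0254), where 1.30% of genes did. For Dusp4 the value between these clusters was -0.10 (limma adjusted p = 0.897). The calls for Spred1 and Dusp4 in T cells and none in NK cells are therefore not shown to be a difference between the cell types.

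The calls among other genes of the pathway in T cells are set beside the 9.46% of all genes that were higher and the 9.63% that were lower. Of 7 further MAP kinase phosphatases, none rose and 2 fell. Dusp16, which acts on JNK and p38, averaged 59.4 CPM ± 4.40 in CAL-101 and 88.2 CPM ± 11.5 in control T cells and fell by 0.61 on the log2 scale (edgeR adjusted p = 0.00563), and Dusp22 fell by 0.56 (adjusted p = 0.00293). Of 3 further Sprouty and Spred genes tested, none passed. Spred2 averaged 85.7 CPM ± 7.30 in CAL-101 and 76.8 CPM ± 3.79 in control T cells (adjusted p = 0.299). Of 15 Ras GTPase activators and other brakes, 2 rose and 3 fell. Ptpn6, which encodes the phosphatase SHP-1, rose by 0.45 (adjusted p = 0.00532), while Dok2, an adaptor for Ras GTPase activators, fell by 0.41 (adjusted p = 0.0152) and Rasa3, a Ras GTPase activator, fell by 0.21 (adjusted p = 0.0268). Dab2ip, another such activator, averaged 1.49 CPM ± 0.665 in CAL-101 and 4.42 CPM ± 0.679 in control T cells and fell by 1.64 (adjusted p = 0.00565).

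Of 19 tested genes of the Ras to ERK cascade, 3 rose and 1 fell in T cells, where 19.1% of all genes passed in either direction. The Ras exchange factors Rasgrp1 and Rasgrp2 rose by 0.40 and 1.11 on the log2 scale (edgeR adjusted p = 0.00415 and 0.00647), and Rasgrp2 averaged 21.6 CPM ± 5.03 in CAL-101 and 9.71 CPM ± 1.84 in control T cells. Sos2, another exchange factor, fell by 0.45 (adjusted p = 0.00896). Of 14 tested transcripts known to be induced by ERK, 3 rose and 1 fell. Egr1 rose by 0.69, Fos by 0.51 and Fosl1 by 0.46 (adjusted p = 0.033, 0.0392 and 0.0132), and Ier3 fell by 0.84 (adjusted p = 0.000543). Egr1 and Fos are also among the dissociation-induced genes above. Of 10 tested p38 and JNK genes, Mapk8, which encodes JNK1, rose by 0.35 (adjusted p = 0.018) and Mapk14, which encodes p38 alpha, fell by 0.32 (adjusted p = 0.00376). The median log2 fold changes of these 6 lists lay between -0.13 and 0.12.

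In NK cells, where 2.97% of all genes rose and 1.92% fell, the same lists held few calls. Ptpn6 averaged 71.1 CPM ± 6.71 in CAL-101 and 39.95 CPM ± 6.78 in control NK cells (SD, n = 3 each) and rose by 0.80 on the log2 scale (edgeR adjusted p = 0.0148). Rasa3 fell by 0.45 and Hras rose by 0.34 (adjusted p = 0.0437 and 0.0307). By edgeR 0 of 6 further MAP kinase phosphatases, 3 further Sprouty and Spred genes, 15 ERK-induced transcripts and 9 p38 and JNK genes passed. Of these, 3 of the phosphatases and 5 of the ERK-induced transcripts had an unadjusted p under 0.05, and 0 of the other two lists.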

How the data were processed

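RNA UMIs of 6 libraries (3 CAL-101 and 3 control mice) were analysed, and surface protein tags were not used here. The deposited matrices hold raw UMI counts per cell. Per the file headers, the authors counted with Cell Ranger 7.1.0. The submitters' processing notes name mm10 and Seurat. Annotation, cell filters and labelling method were not given in the sources used here. Cell type labels and cluster numbers come from the deposited cell tables.

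Counts were summed per mouse over each class or cluster, since cells are not replicates. Each sum was fitted by the quasi-likelihood test of edgeR 4.0.16 (R 4.3.3) with TMM factors, filterByExpr and no covariate, and p-values were adjusted by Benjamini-Hochberg over all genes tested (threshold 0.05). The standard error is the size of the log2 fold change over the square root of F. Clusters needed 20 or more cells in each mouse. The T minus NK difference was fitted with limma 3.58.1 (prior count 2). DESeq2 1.42.0, other normalisations, no filter on low counts, thinned sums, a replicate block, subsets of cells and the omission of each mouse were alternatives. Of these, the fits of single clusters 1 to 5 on only cells with a T cell label were added after the data were seen. Levels by class and cluster are described without a test, since clusters were made from the same cells. Neighbours in an order are said to differ beyond their spread where the step between means exceeds the larger SD. Pattern likeness is Pearson's r of mean log2(CPM + 1) over clusters of at least 50 cells. All 9 members are named, with up to 4 tested genes of each pathway list by smallest p.

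Scrublet's automatic threshold marked almost no doublets, so the 2806 cells of highest score were left out as an alternative. The members and lists were chosen with earlier results of these data known. The labels do not say whether mice shared a T cell preparation, so p-values measure the spread between these 6 mice. The tests were checked on simulated counts. The values of 1 gene of the lists are not reported here. Reads of near-identical genes and of antisense partners may be split or merged by the authors' counting. Python 3.11.15, pandas 2.3.3, scanpy 1.11.5 and matplotlib 3.10.9 were used for sums, scores and plots.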

Additional observations from a re-analysis of the deposited data

Results flagged for a closer look

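Spry2 was picked out because the CAL-101 difference ran in opposite directions in T and NK cells of the same mice. Between T cells of clusters 1 to 5 and NK cells of clusters 0, 7, 9 and 13, the difference of effect was -1.40 on the log2 scale (SE 0.165, limma adjusted p = 0.0254), made up of -1.001 in those T cells and 0.40 in those NK cells. Over all T and NK cells it was -1.27 (adjusted p = 0.113), and over 9 alternatives to that it ran from -1.51 to -1.07. The 1 alternative that passed was the comparison of those clusters itself. With 1 mouse left out, 0 passed (limma adjusted p of 0.0908 to 0.343). The comparison of those clusters was not refitted with mice left out. In those T cells all 3 CAL-101 mice lay below all 3 control mice, and in those NK cells all 3 lay above. Groups of 3 mice are too small for a test of single outlying mice.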

How the results depend on the processing

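Of 668 member values recomputed under an alternative, 572 kept their direction and their side of the threshold, 51 lost a call, 23 gained one and 22 changed sign, none of these last for a member called as reported. Dusp4 and Spred1 in T cells passed in all 16 alternatives, Dusp6 in 11, Dusp10 in 8, Dusp1 in 6 and Spry2 in 4. Besides the mice named above, Dusp6 and Dusp10 were lost in the replicate block (adjusted p = 0.0925 and 0.124) and with clusters weighted equally (0.181 and 0.0677).

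The samples share only a replicate number: the correlations of same-numbered mice were -0.252, -0.243 and 0.00511 in T cells and 0.0661, -0.0241 and -0.0948 in NK cells. With the number as a replicate block, 1495 genes and 2 members passed in T cells (3194 and 4 as reported), 473 genes in NK cells (686), 4 member values in clusters 1 to 5 (12) and 0 genes in the T minus NK difference (141). With clusters 1 to 5 weighted equally, 1415 genes passed in T cells, and Dusp2 and Spry1 turned to 0.0217 and 0.163. With library size only they were 0.0112 and 0.0115. In NK cells 1323 genes and 1 member passed with no filter on low counts, 1 member with DESeq2 and 213 genes in clusters 0, 7, 9 and 13, and Dusp10 was -0.00841 without the highest doublet scores. A prior count of 0.5 gave 86 genes in the T minus NK difference.

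With each mouse left out in turn, T cells gave 1429 to 3850 genes and 2 to 4 members, NK cells 4 to 1589 genes, clusters 1 to 5 gave 4 to 15 member values and the T minus NK difference 0 to 53 genes. Signs turned for Dusp2 (-0.129 to 0.0719), Dusp5 (-0.0474 to 0.126) and Spry1 (-0.141 to 0.143) in T cells, for Dusp1 (-0.212 to 0.0632) and Dusp10 (-0.0602 to 0.0913) in NK cells, for Dusp6 in cluster 1 (-0.115 to 0.166), Dusp10 in cluster 3 (-0.00738 to 0.102) and Dusp2 in T minus NK (-0.0220 to 0.212). The causes were not tested.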
